A study of Homo sapiens with 36 samples.

Results

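AP-1 is a transcription factor made of pairs of basic leucine zipper proteins, and 9 genes that encode its subunits were followed here in 4 human lung cancer cell lines treated with an aptamer against the epidermal growth factor receptor (EGFR). The 9 genes are FOS, FOSB, FOSL1, FOSL2, JUN, JUNB, JUND, ATF3 and BATF3. They were taken by gene name, with no cut on their values but with earlier results of these data known, among 66366 named genes in the deposited files, and each name occurred in every file. In the GENCODE v29 annotation of GRCh38, JUN (chromosome 1, 58780788 to 58784327), BATF3 (chromosome 1, 212686418 to 212699985), FOSL1 (chromosome 11, 65892049 to 65900573) and JUND (chromosome 19, 18279760 to 18281622) lie on the reverse strand. ATF3 (chromosome 1, 212565334 to 212620777), FOSL2 (chromosome 2, 28392448 to 28417312), FOS (chromosome 14, 75278774 to 75282230), JUNB (chromosome 19, 12791496 to 12793315) and FOSB (chromosome 19, 45467995 to 45475179) lie on the forward strand. All 9 are protein-coding, and each value is one level for the whole gene. JUNB overlaps HOOK2, FOSB overlaps ERCC1 and FOSL2 overlaps the antisense gene FLJ31356, each on the opposite strand, and AC104695.3 lies in a FOSL2 intron. The strand setting of the authors' counting is not given in the sources used here, so reads of overlapping genes cannot be told apart.

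RNA was sequenced from 36 libraries, 3 in each of 12 groups. Per the labels, the non-small cell lung cancer lines were H3255 (EGFR L858R), H1975 (EGFR L858R/T790M), H820 (EGFR Ex19del/T790M) and A549 (WT EGFR, wild-type). L858R and Ex19del are activating changes in the receptor's kinase domain, and T790M is known for resistance to early kinase inhibitors. Cells of each line received MinE07, a structured RNA selected to bind EGFR, or an extended form of the control aptamer C36, each at 3 µM, or the vehicle, DPBS with magnesium. All groups were treated for 24 h in medium with 1% serum, with A549 in DMEM and H3255, H1975 and H820 in RPMI. Each genotype is represented by a single line, so genotype, the background of the line and, for A549, the medium cannot be told apart. The series record describes the experiments as biologically independent. The p-values rest on the spread between the 3 libraries within groups, pooled over all groups of a fit and moderated across genes.

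FOS and JUN proteins meet through their leucine zippers and bind a short DNA element. FOS-family proteins do not pair with each other and need a JUN partner, whereas JUN-family proteins can also pair among themselves. FOS, FOSB, JUN and JUNB are immediate early genes, transcribed within minutes of growth factor signalling through MAP kinases, while FOSL1 and FOSL2 lack the strong activation domain of FOS and are kept up by sustained ERK activity. In lung adenocarcinoma the receptor feeds this pathway through RAS, MEK and ERK.

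AP-1 and related dimers also bind the promoters of some of their own genes, JUN and ATF3 among them. RefSeq gave 250 bases before its own transcription start, on GRCh38.p14, for 7 of the 9 genes. Of these, 5 are shown because their transcripts carry the treatment results below or, for JUND, because its transcript was the 1 not called for MinE07 in H3255. The RefSeq starts differ from some GENCODE gene ends given above. The JUN window lies inside the GENCODE gene, and the FOS and ATF3 windows run past the GENCODE start. Capitals mark TGACGTCA or TGACATCA, elements that AP-1 and CREB-like dimers bind, read on both strands. The other windows shown, FOS and JUNB, hold no such match and are given in lower case throughout.
JUN (chr1:58784048-58784297, reverse strand): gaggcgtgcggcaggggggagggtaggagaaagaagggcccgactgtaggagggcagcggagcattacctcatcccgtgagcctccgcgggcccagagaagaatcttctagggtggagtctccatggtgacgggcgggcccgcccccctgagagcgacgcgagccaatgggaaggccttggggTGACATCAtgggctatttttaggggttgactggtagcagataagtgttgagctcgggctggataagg
ATF3 (chr1:212565157-212565406, forward strand): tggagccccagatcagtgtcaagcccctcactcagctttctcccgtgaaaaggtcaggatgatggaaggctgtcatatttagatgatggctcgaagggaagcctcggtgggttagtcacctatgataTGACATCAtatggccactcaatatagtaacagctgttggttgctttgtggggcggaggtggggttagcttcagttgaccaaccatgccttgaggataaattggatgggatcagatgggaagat
FOS (chr14:75278578-75278827, forward strand): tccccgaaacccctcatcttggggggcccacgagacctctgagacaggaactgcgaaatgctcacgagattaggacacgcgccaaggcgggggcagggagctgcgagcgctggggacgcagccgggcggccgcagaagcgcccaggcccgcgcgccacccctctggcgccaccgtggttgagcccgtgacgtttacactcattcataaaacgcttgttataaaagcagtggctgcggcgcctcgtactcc
JUNB (chr19:12791236-12791485, forward strand): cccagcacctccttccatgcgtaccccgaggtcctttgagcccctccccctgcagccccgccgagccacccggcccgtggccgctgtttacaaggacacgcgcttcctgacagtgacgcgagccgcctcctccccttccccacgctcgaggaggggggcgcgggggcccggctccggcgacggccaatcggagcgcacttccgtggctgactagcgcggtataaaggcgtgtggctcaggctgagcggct
JUND (chr19:18281623-18281872, reverse strand): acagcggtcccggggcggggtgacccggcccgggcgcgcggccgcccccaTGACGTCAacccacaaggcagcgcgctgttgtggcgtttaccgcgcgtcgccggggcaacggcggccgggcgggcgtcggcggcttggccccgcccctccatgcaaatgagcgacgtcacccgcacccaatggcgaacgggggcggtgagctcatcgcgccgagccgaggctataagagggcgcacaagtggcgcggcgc

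The JUN window held TGACATCA at positions -67 to -60 from the RefSeq start, the ATF3 window shown held it at -123 to -116, and the JUND window held TGACGTCA at -200 to -193. Of 35116 promoters of the same length, 2.37% held TGACATCA and 1.65% held TGACGTCA. The AP-1 element TGANTCA, where N is any base, was in 6.57% of promoters and in none of the 8 windows of these genes (ATF3 has a second start). The CArG box, the element of serum response factor, was in 1.16% of promoters and in none of the 8. Bases further upstream than these windows were not searched. The absence of a match therefore does not show that a gene, FOS included, lacks the element. A match is a description of the letters and not evidence of binding.

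Levels are given as FPKM (fragments per kilobase of transcript, scaled to sequencing depth), a per-length scale, so genes may be compared within a library. Read counts were not used here. Relative depth, from the smallest steps between low values, ran from 0.590 to 1.38 between libraries, and 13236 to 14267 genes had over 1 FPKM. The libraries fit their labels as epithelial cells: KRT8 and KRT18 were at 296 FPKM or higher in all 36. Not all epithelial genes were high in A549, where EPCAM was at 4.85 to 6.71 FPKM and KRT19 at 3.06 to 4.18. The lung lineage factor NKX2-1 was between 16.4 and 90.6 FPKM in H3255, H1975 and H820 and at most 0.0471 in A549. The lineage genes NAPSA and SFTPB were at 0.912 and 0.0733 FPKM or lower outside H3255. PTPRC, CD3E, VWF and DCN, which define leukocytes, T cells, endothelium and fibroblasts, stayed at 0.0719 FPKM or lower in every library. Other genes of the leukocyte and mesenchymal lists were higher. CD68 reached 96.6 FPKM in A549 and 63.0 in H1975, and CD14 reached 2.16 in H1975. COL1A1 and COL1A2 reached 6.46 and 9.33 in H1975. Each library pools many cells, so fewer cells with a transcript and less transcript per cell cannot be told apart.

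Without aptamer the 4 lines had different AP-1 compositions. Within a line, FOSL1 had the highest FPKM of the members in H1975, JUNB in H3255, and JUND in H820 and A549. Compared across lines, FOS was highest in A549, JUNB in H3255 and JUN in H820. FOSB was the lowest of the 9 in H3255, H1975 and A549 and second lowest in H820, where FOS was lower.

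**Figure D1:**
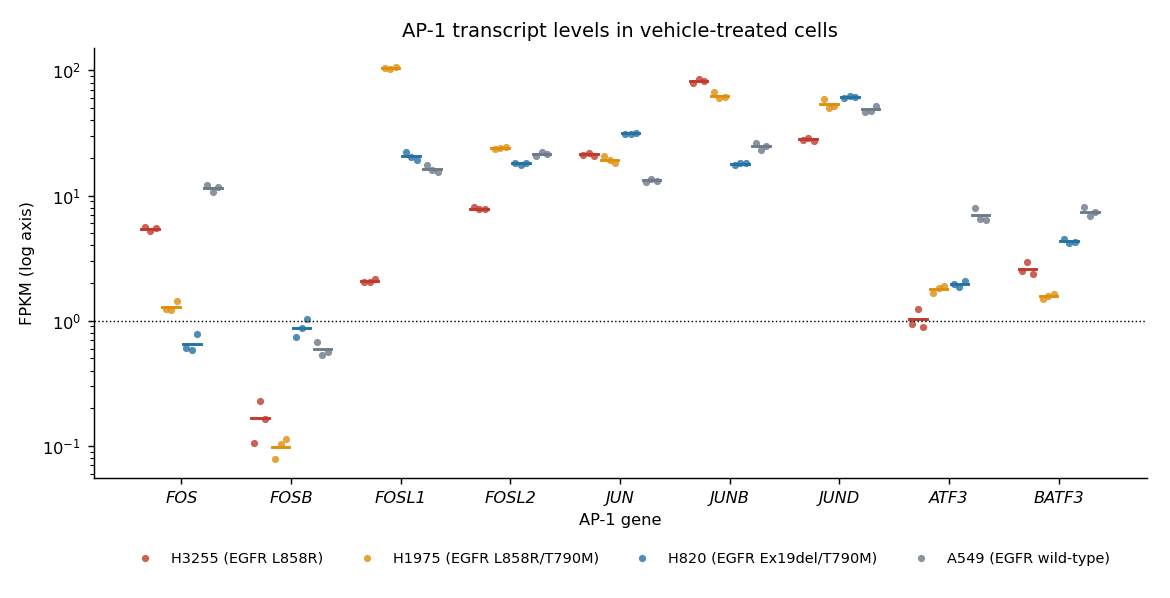
FPKM of the 9 AP-1 genes in the vehicle libraries of each line, on a log axis; points are the 3 libraries of a group and bars their mean, and the dotted line marks 1 FPKM. FOSL1 spans 2.09 FPKM in H3255 to 104 FPKM in H1975, the widest range of the 9 genes.

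FOS, the founding subunit of the family, was at 12.1, 10.6 and 11.7 FPKM in the A549 vehicle libraries and at 5.56, 5.23 and 5.52 in H3255. In H1975 it was at 1.24, 1.23 and 1.43, and in H820 at 0.606, 0.585 and 0.779. No line's libraries overlapped another's, and the means of 11.5 ± 0.799 (SD, n = 3) in A549 and 0.657 ± 0.106 (SD, n = 3) in H820 were 17.5-fold apart. FOSB, a close relative of FOS, was at 0.879 ± 0.148 FPKM in H820, 0.590 ± 0.0739 in A549, 0.167 ± 0.0625 in H3255 and 0.0987 ± 0.0181 in H1975 (SD, n = 3 each). The H3255 and H1975 libraries overlapped. With a mean under 1 FPKM in every line, FOSB entered no main test.

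FOSL1, which encodes FRA1, was at 104, 103 and 106 FPKM in the H1975 vehicle libraries. The H820 libraries were at 22.1, 20.4 and 19.1, the A549 libraries at 17.5, 16.1 and 15.4, and the H3255 libraries at 2.03, 2.05 and 2.17. H1975 was 50.0-fold above H3255, and the log2 difference of H3255 minus H1975 was -5.34 (limma on log2(FPKM + 0.5), SE 0.055, Benjamini-Hochberg adjusted p = 8.67e-17). FOSL2, which encodes FRA2, differed less: its means were 24.0 in H1975, 21.5 in A549, 18.1 in H820 and 7.87 in H3255. The H1975 and A549 neighbours did not hold their order: FOSL2 was 0.16 higher in H1975 on the log2 scale as deposited and 0.06 lower (-0.06) after rescaling by medians of ratios.

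Among the JUN genes, JUN, the strongest activator of its family, had means of 31.4 ± 0.267 FPKM in H820, 21.3 ± 0.598 in H3255, 19.4 ± 1.17 in H1975 and 13.2 ± 0.357 in A549 (SD, n = 3 each). The H3255 and H1975 difference of 0.14 was called (limma adjusted p = 0.0102), but not without H1975 vehicle replicate 3 (adjusted p = 0.058). JUNB, which often tempers JUN, was at 79.9, 85.3 and 81.7 FPKM in H3255 and at 17.6, 18.2 and 18.2 in H820, with H1975 at 62.7 ± 3.54 and A549 at 24.8 ± 1.53 between them. JUND, the most steadily expressed JUN gene in many tissues, had means of 61.2 in H820, 54.1 in H1975, 48.7 in A549 and 28.2 in H3255. The JUND neighbours H1975 and A549 were 0.15 apart (limma adjusted p = 0.0301) as deposited and -0.07 after medians of ratios. Leaving out A549 vehicle replicate 1, A549 vehicle replicate 2 or H1975 vehicle replicate 1 also ended that call (0.0986, 0.0793 and 0.145), and H1975 against H820 was not called without H1975 vehicle replicate 2 (0.0587).

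ATF3, a stress-induced subunit that often represses as a homodimer, was at 7.98, 6.52 and 6.41 FPKM in A549. Its other means were 1.97 in H820, 1.80 in H1975 and 1.03 in H3255, and the H1975 and H820 libraries overlapped (log2 difference -0.10, limma adjusted p = 0.325, or -0.24 and 0.0298 after medians of ratios). BATF3, a small subunit without an activation domain that is best known in dendritic cells, had means of 7.45 in A549, 4.32 in H820, 2.59 in H3255 and 1.57 in H1975. Of the 8 tested members, 8 were called in H3255 against H1975 (84.3% of all 14523 tested genes were called there), 8 against H820 (84.7%) and 8 against A549 (85.7%). In H1975, 7 were called against H820 (82.1%) and 8 against A549 (82.8%), and 8 differed between H820 and A549 (83.8%). The members thus differed between lines about as often as other genes.

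Per length, FOSL1 made up 80.4% ± 0.331 of summed FOS-family FPKM in H1975 vehicle cells (SD, n = 3), against 13.4% ± 0.517 in H3255, where FOSL2 had 50.6% and FOS 34.9%. In A549, FOSL2 had 43.1%, FOSL1 32.7% and FOS 23.0%, and in H820 FOSL1 had 51.1% and FOS 1.64%. Among the JUN genes, JUNB held 62.4% ± 0.488 in H3255 and 16.3% ± 0.0670 in H820, while JUND held 55.3% in H820 and 56.1% in A549. Shares within a library do not depend on how libraries are scaled.

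**Figure D2:**
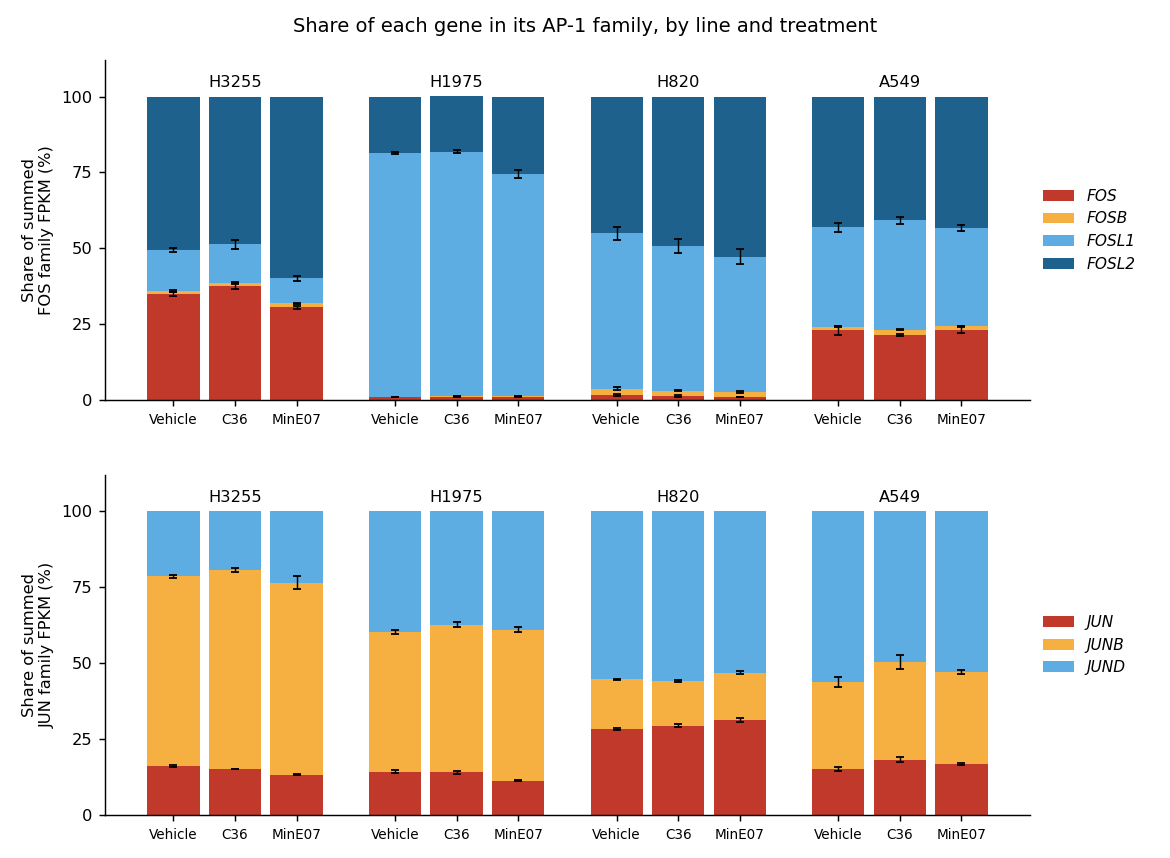
Mean share of each gene in the summed FPKM of the FOS family (top) and the JUN family (bottom) for 4 lines under 3 treatments; error bars at the top of a segment are the SD of that gene's share over 3 libraries. With MinE07 the FOSL1 share is 73.3% in H1975 against 80.6% with C36, and the FOSL2 share in H3255 is 59.9% against 48.7%.

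MinE07 was compared with C36 to ask which transcripts respond to an aptamer against EGFR beyond an aptamer that is not directed at it, and C36 with vehicle to measure the response to the control aptamer. In H3255, 7 of the 8 tested AP-1 genes fell with MinE07 and none rose. ATF3 (by 0.95 on the log2 scale), FOSL1, FOS, JUN, JUNB, BATF3 and FOSL2 were all below their C36 libraries without overlap. Of all 13429 genes tested there, 20.0% were called lower and 16.6% higher. The members' median change was -0.47, against -0.01 over all genes.

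**Figure D3:**
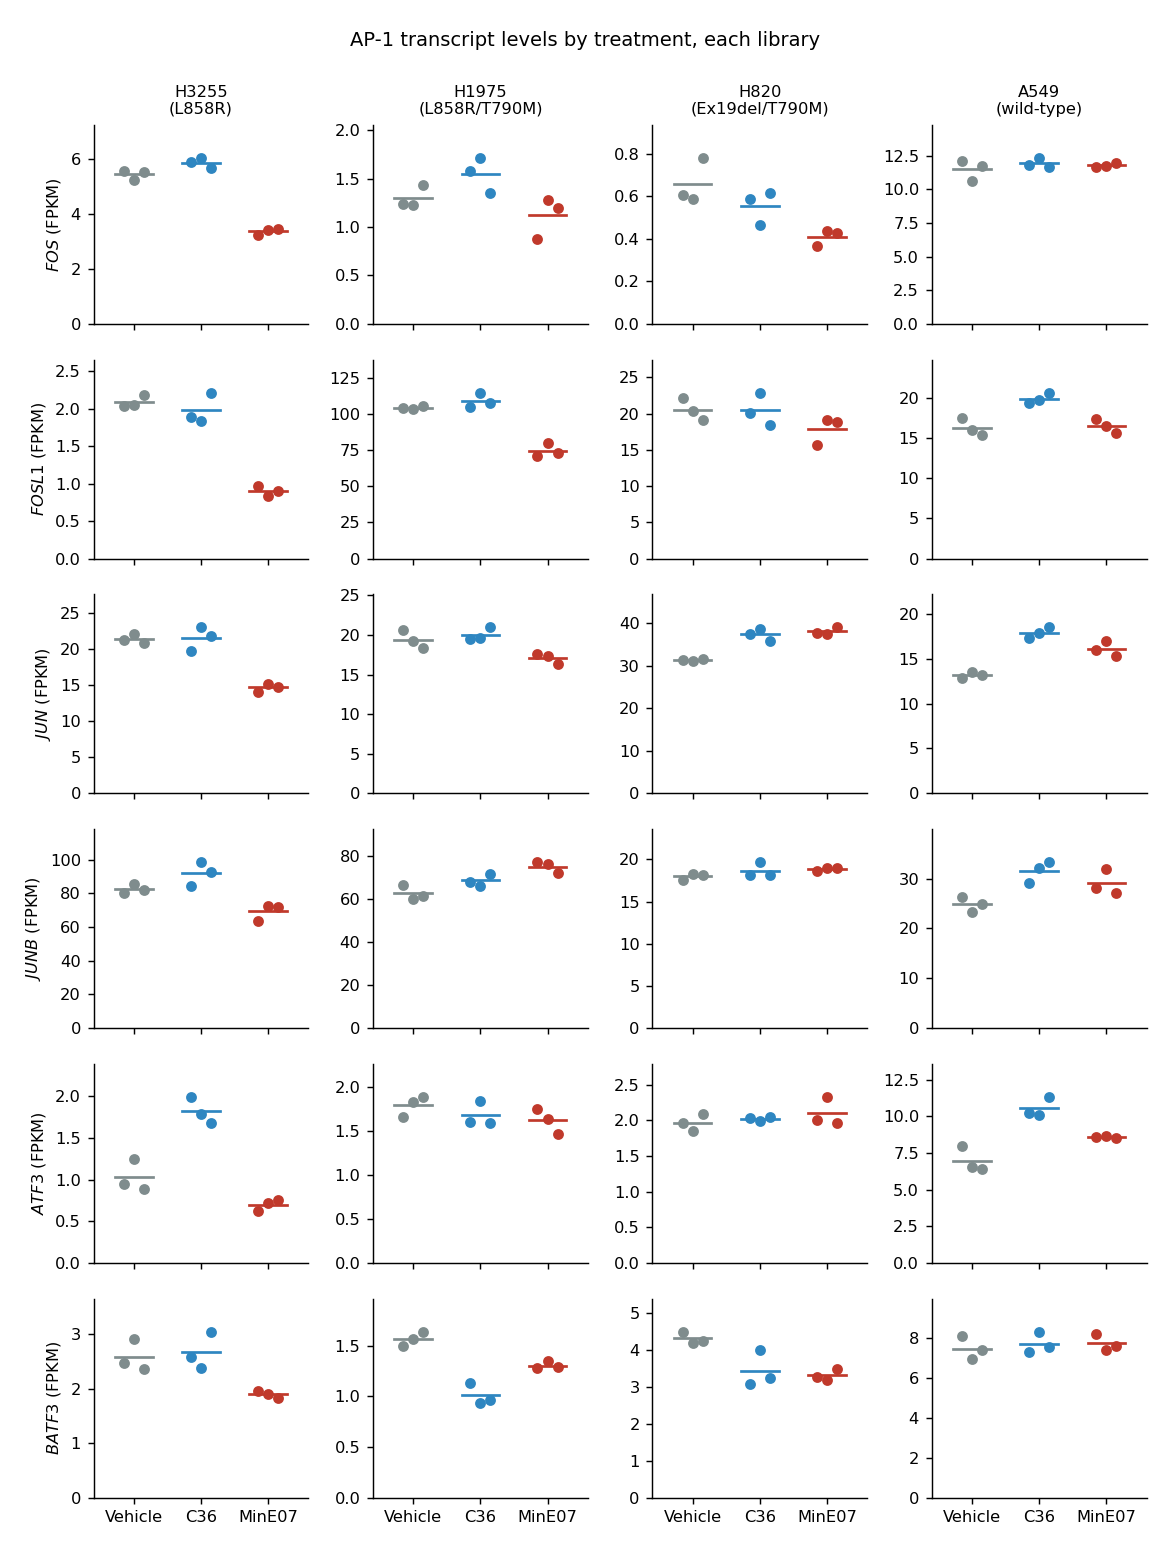
FPKM in every library for 6 AP-1 genes (rows) in 4 lines (columns) by treatment; points are libraries, bars are means of 3, and each panel has its own axis from 0. In H3255 the MinE07 libraries lie below both other groups for all 6 genes, whereas in A549 the C36 libraries are highest for FOSL1, JUN and ATF3.

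FOS in H3255 was at 3.24, 3.42 and 3.43 FPKM with MinE07, at 5.90, 6.03 and 5.66 with C36 and at 5.56, 5.23 and 5.52 with vehicle. All 3 MinE07 libraries were lower than all 6 others, and C36 lay close to vehicle. The log2 change against C36 was -0.72 (SE 0.043, limma adjusted p = 1.07e-06) and against vehicle -0.62 (adjusted p = 2.82e-06). FOSL1 was at 0.964, 0.832 and 0.902 FPKM with MinE07, at 1.89, 1.84 and 2.21 with C36 and at 2.03, 2.05 and 2.17 with vehicle. Here too MinE07 stood apart from both, with changes of -0.82 (SE 0.068, limma adjusted p = 1.13e-05) and -0.89 (adjusted p = 6.06e-06). The pseudocount weighs on a gene this low: against C36 the FOSL1 change was -1.05 with a pseudocount of 0.1 and -0.65 with 1. FOSL2 fell least among the called genes, from 7.72, 7.68 and 7.45 FPKM with C36 to 6.42, 6.83 and 6.51 (-0.20, SE 0.037, limma adjusted p = 0.00218).

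The JUN genes split. JUN was at 14.1, 15.1 and 14.7 FPKM with MinE07, at 19.7, 22.9 and 21.7 with C36 and at 21.2, 22.0 and 20.8 with vehicle. The MinE07 libraries lay below all others, and the change was -0.53 (SE 0.053) against each, with limma adjusted p = 3.69e-05 against C36 and 3.51e-05 against vehicle. JUNB was at 63.8, 72.3 and 72.2 FPKM with MinE07, at 84.5, 98.4 and 92.4 with C36 and at 79.9, 85.3 and 81.7 with vehicle. Its change was -0.40 (SE 0.062, limma adjusted p = 0.000787) against C36 and -0.25 (adjusted p = 0.0109) against vehicle, and without a filter on low genes the second was not called (adjusted p = 0.0571). JUND overlapped between groups, at 26.8, 25.4 and 24.7 FPKM with MinE07 and 24.0, 28.8 and 28.8 with C36 (-0.08, SE 0.066, limma adjusted p = 0.379). A single C36 library set that value: without C36 replicate 1 JUND was called lower (-0.17, adjusted p = 0.0181).

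ATF3 had the largest change and the least simple one. It was at 0.625, 0.719 and 0.755 FPKM with MinE07, at 1.99, 1.78 and 1.68 with C36 and at 0.942, 1.25 and 0.889 with vehicle. The 3 groups did not overlap, and C36 was above vehicle. The change of MinE07 against C36 was -0.95 (SE 0.093, limma adjusted p = 3.51e-05), against vehicle -0.34 (adjusted p = 0.0149), and of C36 against vehicle 0.61 (adjusted p = 0.0383). The second of these was lost without MinE07 replicate 1 (adjusted p = 0.0521) or without the filter (0.0655). The call of C36 against vehicle was lost on leaving out any library except vehicle replicate 2, with p between 0.0975 and 0.145, and was 0.187 without the filter. BATF3 fell from 2.58, 2.39 and 3.05 FPKM with C36 to 1.96, 1.90 and 1.83 with MinE07, while vehicle was at 2.48, 2.92 and 2.37. Its changes were -0.40 (SE 0.084, limma adjusted p = 0.00409) and -0.36 (adjusted p = 0.00654), and the MinE07 libraries were below both groups.

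Against vehicle the same 7 genes were lower in H3255, beside 17.2% of all genes. These 2 comparisons share the MinE07 libraries. For C36 against vehicle ATF3 was the only member called higher (0.164% of all genes were), and JUNB at 0.15 (limma adjusted p = 0.274) and FOS at 0.10 (adjusted p = 0.300) were the next largest. FOSB was at 0.131, 0.145 and 0.161 FPKM with MinE07 and 0.204, 0.182 and 0.191 with C36, which do not overlap, but in the fit without a filter its change was -0.10 (limma adjusted p = 0.501). Summed FOS-family FPKM in H3255 was 11.0 ± 0.237 with MinE07 against 15.6 ± 0.121 with C36 and 15.6 ± 0.236 with vehicle (SD, n = 3 each), and summed JUN-family FPKM was 109.7 ± 4.38 against 140.4 ± 11.2 and 132 ± 3.93. Summed lung lineage markers were also different in these libraries, at 258 to 277 FPKM with MinE07 and 228 to 235 with C36. Summed epithelial markers differed the other way, at 1895 to 1948 FPKM with MinE07, 2060 to 2105 with C36 and 2179 to 2254 with vehicle, and the part of either in the AP-1 changes was not tested.

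H1975, the line with the most FOSL1, gave a narrower response. FOSL1 fell with MinE07 by most, JUN fell by less, and JUNB was higher than with vehicle. Against C36, 3 of 8 members were called lower (11.1% of 14183 genes were) and 1 higher (8.88%), with a members' median of 0.02 against -0.01 over all genes. Against vehicle 2 were called lower (12.9%) and 2 higher (10.8%).

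FOSL1 in H1975 was at 71.0, 79.8 and 72.6 FPKM with MinE07, at 105, 115 and 108 with C36 and at 104, 103 and 106 with vehicle. Every MinE07 library was below all 6 others, by -0.55 against C36 (SE 0.047, limma adjusted p = 0.000122) and -0.48 against vehicle (adjusted p = 0.000226). The FOSL1 share of the family went from 80.6% ± 0.547 with C36 to 73.3% ± 1.21 with MinE07, and that of FOSL2 from 18.2% to 25.5%. Summed FOS-family FPKM came to 102 ± 4.66 in MinE07 libraries, 135 ± 5.29 in C36 libraries and 129.7 ± 1.74 in vehicle libraries. FOSL2 itself was at 26.1, 25.7 and 25.9 FPKM with MinE07, above the vehicle libraries at 23.4, 24.1 and 24.5 (0.11, SE 0.028, limma adjusted p = 0.0219), a call lost without MinE07 replicate 1 (adjusted p = 0.0652) or 3 (0.0583).

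FOS in H1975 was low, at 0.880, 1.28 and 1.20 FPKM with MinE07 and 1.58, 1.71 and 1.35 with C36. The groups did not overlap, and the change was -0.34 (SE 0.104, limma adjusted p = 0.0436), but vehicle at 1.24, 1.23 and 1.43 overlapped MinE07. Without C36 replicate 1 or 2 or MinE07 replicate 1 or 3 the call was lost, with p from 0.0693 to 0.146, and the change was -0.23 without MinE07 replicate 1. JUN was at 17.6, 17.4 and 16.4 FPKM with MinE07, at 19.5, 19.6 and 20.9 with C36 and at 20.6, 19.2 and 18.3 with vehicle. Its MinE07 libraries were the lowest of the 9, with changes of -0.22 (SE 0.049, limma adjusted p = 0.0120) and -0.17 (adjusted p = 0.0293). The first was 0.0605 without the filter, and the second was lost without MinE07 replicate 2 or 3 or vehicle replicate 1 or 2 (0.0580 to 0.102).

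JUNB went the other way from H3255. It was at 77.3, 76.3 and 72.2 FPKM with MinE07, at 68.2, 66.3 and 71.9 with C36 and at 66.7, 60.0 and 61.5 with vehicle. MinE07 lay above vehicle by 0.26 (SE 0.047, limma adjusted p = 0.00397) and above C36 by 0.13 (adjusted p = 0.0833, not called). BATF3 was highest in vehicle at 1.49, 1.57 and 1.64 FPKM, lower with MinE07 at 1.28, 1.35 and 1.29 and lowest with C36 at 1.14, 0.935 and 0.967. Thus it was called higher with MinE07 than with C36 (0.26, SE 0.065, limma adjusted p = 0.0208) and was lower in C36 libraries than in vehicle ones (-0.45, adjusted p = 0.0336), where 0.190% of all genes were called lower. Both calls were thin: the first was lost without C36 replicate 2 or 3 or MinE07 replicate 2 or 3 (0.0547 to 0.0806), and the second without any library but vehicle replicate 1 (0.0657 to 0.169). JUND and ATF3 overlapped in all 3 comparisons of H1975, with ATF3 between 1.47 and 1.89 FPKM and JUND between 47.9 and 61.5. Summed mesenchymal markers were 16.1 to 17.1 FPKM with MinE07 and 12.1 to 13.8 with C36 in H1975, carried by COL1A1 and COL1A2 with DCN at 0.0626 or lower. Lung lineage markers were 22.4 to 23.5 with MinE07 and 17.0 to 18.7 with C36, and epithelial markers 2077 to 2171 and 1966 to 2045, and the part of these lists was not tested.

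**Figure D4:**
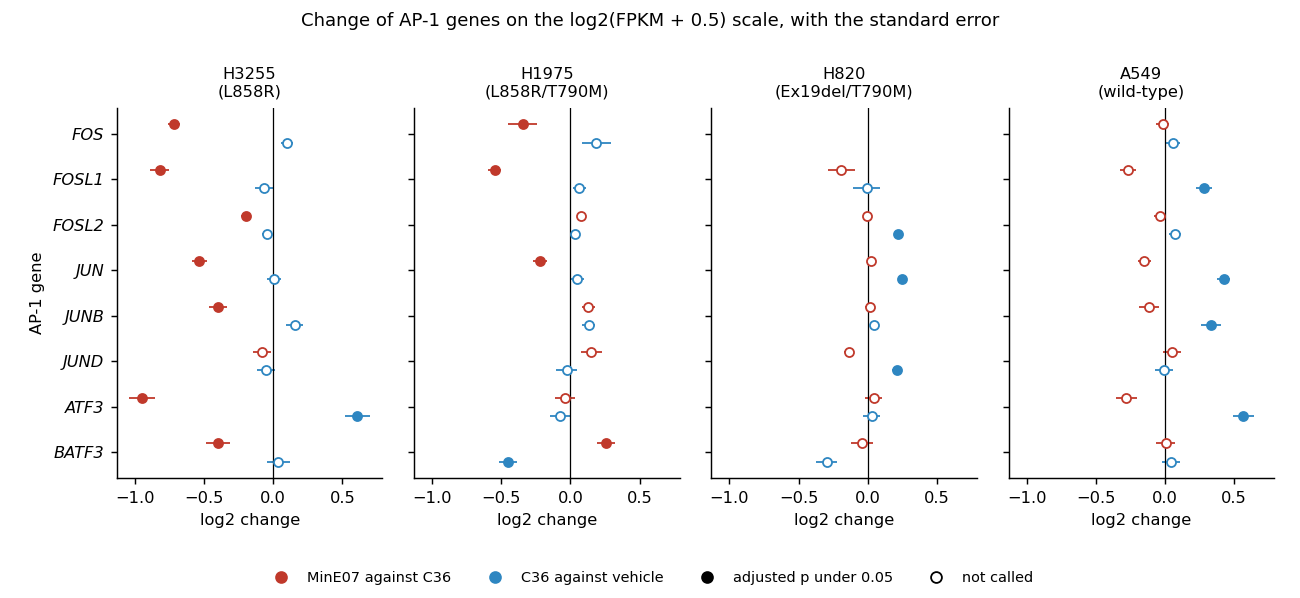
Log2 change with its standard error for 8 AP-1 genes in each line, for MinE07 against C36 (red) and C36 against vehicle (blue); filled points passed an adjusted p under 0.05 in limma. FOS was not tested in H820, where its mean was 0.540 FPKM. In H3255 all red points lie left of 0 and in A549 ATF3, JUN, JUNB and FOSL1 lie right of 0 for C36.

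In H820 no member was called for MinE07 against C36 in limma (0 of 7 tested, beside 0.0364% of 13753 genes), and 1, JUND, had an unadjusted p under 0.05. JUND changed by -0.14 (SE 0.035, adjusted p = 0.308) and FOSL1 by -0.19 (SE 0.099, adjusted p = 0.572). FOSL1 was at 15.7, 19.1 and 18.8 FPKM with MinE07 and 20.1, 22.9 and 18.5 with C36, which overlap. FOS, below the filter, was at 0.368, 0.436 and 0.425 with MinE07 and 0.586, 0.464 and 0.613 with C36 (-0.21 without a filter, limma adjusted p = 0.750). Against vehicle, at 0.606, 0.585 and 0.779, FOS was called lower with MinE07 only in the fit of all 36 libraries (-0.34, limma adjusted p = 0.00741, or 0.211 in H820 alone without a filter).

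Against vehicle, JUN and FOSL2 were higher in H820 with each aptamer, JUND was called with C36 alone and BATF3 with MinE07 alone. JUN was at 37.7, 37.5 and 39.0 FPKM with MinE07, at 37.5, 38.7 and 35.9 with C36 and at 31.3, 31.2 and 31.7 with vehicle. Both aptamer groups were above every vehicle library, by 0.27 (SE 0.031, limma adjusted p = 0.00188) and 0.25 (adjusted p = 0.00451). FOSL2 was at 21.0, 21.6 and 20.6 with MinE07, at 21.5, 21.5 and 20.4 with C36 and at 18.3, 17.6 and 18.3 with vehicle, which is 0.22 higher with each (SE 0.032, limma adjusted p = 0.00679 and 0.00840). The C36 call of FOSL2 was 0.0538 without a filter and 0.124 when each library was scaled to the same total (TPM). JUND was higher with C36, at 69.6, 72.9 and 69.9 FPKM, than with vehicle, at 59.7, 62.1 and 61.8 (0.21, SE 0.035, limma adjusted p = 0.0153), while MinE07 at 66.8, 61.2 and 65.2 overlapped vehicle (0.07, adjusted p = 0.306). The C36 call was lost without C36 replicate 1 (0.0532), C36 replicate 2 (0.0619) or vehicle replicate 1 (0.0587). BATF3 was lower with MinE07, at 3.27, 3.18 and 3.49, than with vehicle, at 4.50, 4.20 and 4.25 (-0.34, SE 0.077, limma adjusted p = 0.0480), which was lost without any 1 of the 6 libraries (0.0939 to 0.146). With C36 it was at 3.09, 4.004 and 3.24 (-0.30, adjusted p = 0.0732), and without C36 replicate 2 it was called (-0.40, adjusted p = 0.0162). For MinE07 against vehicle this makes 2 members higher (1.99% of all genes) and 1 lower (1.03%), and for C36 against vehicle 3 higher (1.56%). These comparisons share the vehicle libraries. Summed lung lineage markers in H820 were 28.9 to 31.7 FPKM with MinE07 and 28.97 to 30.5 with C36, below 34.8 to 36.7 with vehicle, and their part was not tested.

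In A549, with wild-type EGFR, AP-1 genes were called for the control aptamer. With C36, 4 of 8 members rose against vehicle (3.62% of 13425 genes were called higher and 2.38% lower), and the members' median was 0.18 against 0.01 over all genes. For MinE07 against C36 limma called 0 of 8, as it called 0% of all genes, and 3 members (ATF3, FOSL1 and JUN) had an unadjusted p under 0.05. For MinE07 against vehicle it called 0 of 8 (0.216% of all genes), and again 3 (ATF3, JUN and JUNB) had an unadjusted p under 0.05. All 8 members had a value above vehicle with MinE07, and in the fit of all 36 libraries these 3 were called, so the data do not show that the aptamers differ in A549.

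JUN in A549 was at 17.3, 17.9 and 18.5 FPKM with C36, at 16.0, 17.0 and 15.3 with MinE07 and at 12.8, 13.6 and 13.2 with vehicle. The groups stood in that order without overlap. C36 was 0.42 above vehicle (SE 0.046, limma adjusted p = 0.00470), and MinE07 was 0.28 above it (adjusted p = 0.0515), which passed without vehicle replicate 1 (0.0311) and in the fit of all libraries (0.000745). ATF3 had the same order, at 10.2, 10.1 and 11.3 FPKM with C36, 8.58, 8.64 and 8.54 with MinE07 and 7.98, 6.52 and 6.41 with vehicle. The C36 change was 0.57 (SE 0.076, limma adjusted p = 0.00617), and that of MinE07 against vehicle was 0.29 (adjusted p = 0.144), or 0.38 (adjusted p = 0.00989) without vehicle replicate 1.

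JUNB was at 29.1, 32.1 and 33.3 FPKM with C36 and 26.4, 23.3 and 24.9 with vehicle (0.34, SE 0.072, limma adjusted p = 0.0274), and MinE07 at 28.0, 31.9 and 27.2 overlapped C36. FOSL1 was at 19.5, 19.7 and 20.7 with C36 and 17.5, 16.1 and 15.4 with vehicle (0.28, SE 0.056, limma adjusted p = 0.0217), while MinE07 at 17.4, 16.5 and 15.6 was like vehicle (0.02, adjusted p = 0.927). Leaving out C36 replicate 2 or 3 or vehicle replicate 2 or 3 ended the JUNB call (0.0733 to 0.114), and any library but vehicle replicate 1 ended that of FOSL1 (0.0508 to 0.0958). FOS did not follow: it was between 10.6 and 12.3 FPKM in all 9 libraries. FOSB, untested, was at 0.871, 0.902 and 0.998 with C36, above 0.673, 0.533 and 0.564 with vehicle (0.39 without a filter, limma adjusted p = 0.0796). Summed leukocyte markers moved with these changes, at 94.2 to 98.0 FPKM with C36 and 68.0 to 82.5 with vehicle. CD68, which is also a lysosomal gene, carried that sum, with PTPRC at 0.0158 or lower and CD3E listed at 0 in all A549 libraries.

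The setting of the fit ended several of these calls. With no filter on low genes, limma adjusted p for MinE07 against C36 in H1975 was 0.154 for FOS and 0.0585 for BATF3, and against vehicle it was 0.114 for JUN and 0.0547 for FOSL2. In the same setting BATF3 had 0.104 for C36 against vehicle in H1975 and 0.216 for MinE07 against vehicle in H820, JUND had 0.0938 for C36 in H820, and FOSL1 and JUNB had 0.105 and 0.136 for C36 in A549. As TPM, BATF3 in H1975 had limma adjusted p = 0.0737 and 0.0722 for MinE07 against C36 and C36 against vehicle, FOSL2 in H1975 had 0.232 against vehicle, and JUND in H820 had 0.106 for C36. Medians of ratios left FOS in H1975 at 0.0534 and the fit without trend and robust at 0.0543. That last fit also ended ATF3 for C36 in H3255 (0.0767) and BATF3 for MinE07 against vehicle in H820 (0.0759), and the fit of all libraries ended JUND for C36 in H820 (0.0881).

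Differences between lines in these changes were tested as interaction terms, with all 36 libraries in a single model. For MinE07 against C36, H3255 went lower than H1975 in 6 of 8 members (8.48% of 14572 genes), lower than H820 in 7 (11.2%) and lower than A549 in 7 (14.0%). The 7 against H820 include FOS (-0.51), which was below the filter in H820 (mean 0.540 FPKM). It entered this model by its mean over all 36 libraries, and the pseudocount of 0.5 understates its change in H820. ATF3 had the largest of these differences from H1975 and H820, at -0.91 (SE 0.113, limma adjusted p = 7.12e-07) and -0.99 (adjusted p = 1.58e-07), and from A549 the difference was -0.70 for FOS (SE 0.108, adjusted p = 1.50e-05) and -0.67 for ATF3, which at a pseudocount of 0.1 was -0.97. JUNB, lower in H3255 and not in H1975, differed by -0.53 (SE 0.087, limma adjusted p = 5.32e-05). FOSL1 did not pass between the L858R lines: its difference of -0.27 (SE 0.103, limma adjusted p = 0.0730) became -0.50 (adjusted p = 0.00183) with a pseudocount of 0.1 and -0.41 (adjusted p = 0.0108) as TPM, so on this scale the comparison of a gene near 2 FPKM with the same gene near 100 depends on the pseudocount. JUND was called in none of the 6 line pairs (limma, unadjusted p under 0.05 in 2). It was called against H1975 without H3255 C36 replicate 1 (-0.32, adjusted p = 0.01997), and for H1975 minus H820 without H1975 C36 replicate 3 (0.34, adjusted p = 0.0367).

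Of the H3255 terms, 3 lost their call on leaving out any 1 of several libraries. FOS against H1975 (-0.37, limma adjusted p = 0.0168) was lost without H1975 C36 replicate 3, MinE07 replicate 2 or MinE07 replicate 3 (0.0526 to 0.0673). BATF3 against H820 (-0.36, limma adjusted p = 0.0204) was lost without H3255 C36 replicate 3, H820 C36 replicate 1 or 3, or H820 MinE07 replicate 3 (0.0566 to 0.0842). JUNB against A549 (-0.28, limma adjusted p = 0.0166) was lost without A549 C36 replicate 1, A549 MinE07 replicate 2, H3255 C36 replicate 2 or H3255 MinE07 replicate 1 (0.0603 to 0.0678). Other settings ended FOS against H1975 (limma adjusted p = 0.139 with a pseudocount of 0.1 and 0.0996 as TPM), BATF3 against H820 (0.0580 with no filter), JUNB against A549 (0.0503 with no filter) and FOSL2 against A549 (0.0880 as TPM).

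H1975 went lower than H820 in 2 members (4.19% of genes), FOSL1 (-0.36, limma adjusted p = 0.0299) and JUN (-0.25, adjusted p = 0.0231), and lower than A549 in 1 (6.88%), FOS (-0.33, adjusted p = 0.0449). FOSL1 lost its call without H1975 C36 replicate 2, H1975 MinE07 replicate 1 or 3, H820 C36 replicate 1 or 3, or H820 MinE07 replicate 2 or 3, with p up to 0.105. JUN lost its call without H1975 C36 replicate 3, H1975 MinE07 replicate 3, H820 C36 replicate 3 or H820 MinE07 replicate 3, with p up to 0.0774. The FOS term against A549 was called without H1975 C36 replicate 3, MinE07 replicate 2 or MinE07 replicate 3 and lost without any other library of these groups, with p up to 0.164. With no filter on low genes none of these 3 terms passed (limma adjusted p = 0.0751 for FOSL1, 0.0525 for JUN and 0.105 for FOS), and the JUNB term of C36 given next had 0.103. H820 and A549 differed in 0 members (0.323% of genes), with 2, ATF3 and JUN, at an unadjusted p under 0.05 in limma. As TPM these 2 were called (0.46 and 0.31, limma adjusted p = 0.0472 and 0.0325). However, TPM also moved the median of all genes for this term, from 0.01 to 0.13, so these values hold a shift shared by all genes. JUNB, uncalled for H1975 minus A549 at 0.25 (limma adjusted p = 0.0596), was called without A549 C36 replicate 1 (0.30), A549 MinE07 replicate 2 (0.31) or H1975 C36 replicate 3 (0.28), and FOSL1 at -0.28 (adjusted p = 0.0688) without H1975 MinE07 replicate 2 (-0.33).

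For C36 against vehicle, A549 went higher than H3255 in JUN (0.42, SE 0.068, limma adjusted p = 0.000433), the 1 member called there (1.77% of genes). It went higher than H1975 in 3 (2.49%): ATF3 (0.64, adjusted p = 0.00112), BATF3 (0.50, adjusted p = 0.00876) and JUN (0.38, adjusted p = 0.00129). BATF3 was not called in A549 itself, where its change was 0.04 (limma adjusted p = 0.743), against -0.45 in H1975. Against H820 it went higher in 2 (3.52%), ATF3 (0.54, limma adjusted p = 0.00367) and JUNB (0.29, adjusted p = 0.0444). The JUNB term was lost without A549 C36 replicate 2 or 3, A549 vehicle replicate 2 or 3, H820 C36 replicate 1 or 3, or any H820 vehicle library, with limma adjusted p from 0.0542 to 0.129. Uncalled terms that passed on leaving out 1 library were FOSL1 from H3255 without A549 vehicle replicate 1 (0.40) or H3255 C36 replicate 3 (0.41), and FOSL1 from H820 without H820 C36 replicate 2 (0.37). BATF3 from H820 did so without A549 vehicle replicate 1 (0.39) or H820 C36 replicate 2 (0.44), and FOSL2 from H820 without A549 C36 replicate 2 (-0.16), A549 vehicle replicate 1 (-0.17) or H820 C36 replicate 3 (-0.17). ATF3 did not differ by this test between A549 and H3255 (-0.04, SE 0.113, limma adjusted p = 0.911): with C36 it was higher than with vehicle in both lines, by 0.57 and 0.61.

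Genes around AP-1 were read from lists chosen by function. Of 28 genes known as AP-1 targets, 20 were tested in H3255, where 13 fell and 3 rose with MinE07 against C36 (median -0.28), beside 20.0% and 16.6% of all genes. CXCL8, the neutrophil chemokine, fell from 21.7, 24.9 and 24.3 FPKM to 5.07, 6.17 and 5.82 (-1.97, SE 0.079, limma adjusted p = 2.69e-07), and PLAU, a protease of matrix breakdown, by 1.53 on the log2 scale (adjusted p = 4.45e-07). In H1975, where 11.1% of all genes fell and 8.88% rose, 13 of 21 fell and 2 rose (median -0.18), led by IL11 (-0.62, limma adjusted p = 3.84e-05) and CCND1, cyclin D1 (-0.55, adjusted p = 1.25e-05). In H820 and in A549 0 of 18 were called for MinE07 against C36, beside 0.0364% and 0% of all genes. With C36 against vehicle, 5 of 18 rose and 1 fell in A549, beside 3.62% and 2.38% of all genes. They were led by CXCL8 (0.55, limma adjusted p = 0.0111), with a list median of -0.02. By the same comparison 3 of 18 rose and 0 fell in H820 (median 0.06), beside 1.56% of all genes called higher. IL11 led there (0.48, limma adjusted p = 0.0274). In H3255 and H1975 0 of 20 and 0 of 21 were called for C36 against vehicle.

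Of 19 other immediate early genes, 16 or 17 were tested in a line. In H3255, 10 of 16 fell and 1 rose with MinE07 against C36 (median -0.22), beside 20.0% and 16.6% of all genes. EGR1 was at -0.92 (limma adjusted p = 1.97e-06) and IER3 at -0.77 (adjusted p = 7.19e-08). In H1975, 6 of 16 fell and 1 rose (median -0.06), beside 11.1% and 8.88% of all genes. In A549 with C36 against vehicle 7 of 17 rose and none fell (median 0.14), beside 3.62% and 2.38% of all genes. EGR1 was at 1.03 there (limma adjusted p = 0.00204). In H820 with C36 against vehicle 3 of 17 rose and 0 fell (median 0.06), beside 1.56% of all genes called higher. CCN1 led those (0.39, limma adjusted p = 0.00245). EGR1, a zinc finger factor induced by ERK, was the only 1 of 17 called in H820 for MinE07 against C36, beside 0.0364% of all genes. It was at 1.01, 1.27 and 1.18 FPKM against 2.30, 2.42 and 2.31 (-0.78, SE 0.064, limma adjusted p = 0.00165), while JUN and FOSL2 were at the C36 level. With MinE07 against C36 the ERK feedback genes DUSP6 and SPRY4 fell by 0.69 and 0.86 in H3255 (limma adjusted p = 5.88e-07 and 1.51e-07) and by 0.55 and 0.67 in H1975 (0.000232 and 0.000122). Against vehicle their MinE07 changes were -0.57 and -0.64 in H3255 and -0.27 and -0.38 in H1975, all called. C36 was 0.29 above vehicle for both genes in H1975 (limma adjusted p = 0.0629 and 0.0649). SPRY4 was called higher with C36 than with vehicle in H3255 (0.22, limma adjusted p = 0.0471) and A549 (0.28, adjusted p = 0.0206). So was EGR1 in H1975 (0.40, limma adjusted p = 0.0320). For MinE07 against C36 in A549, DUSP6 and SPRY4 changed by -0.07 and -0.18 and were not called, and in H820 both were under 0.13 FPKM. EGFR itself fell by 0.31 in H3255 (limma adjusted p = 3.29e-05) and was not called in the other lines.

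Of 14 other bZIP genes, 10 were tested in H3255, where 3 fell and 2 rose with MinE07 against C36, a share near that of all genes (20.0% and 16.6%). JDP2, a JUN-binding repressor, rose from 8.53, 8.76 and 8.23 FPKM with C36 to 14.8, 15.8 and 15.2 with MinE07 (0.81, SE 0.038, limma adjusted p = 2.78e-07), opposite to the FOS and JUN genes. MAFF fell in H3255 (-0.35, limma adjusted p = 0.00175) and in H1975 (-0.32, adjusted p = 0.00902). In A549, C36 raised DDIT3 (0.57, limma adjusted p = 0.00470), a factor of the stress response, and BATF2 (0.42, adjusted p = 0.00779). In H820 3 of 11 bZIP genes rose with C36 against vehicle and 0 fell, beside 1.56% of all genes called higher. Among 18 kinases and factors upstream of AP-1, 6 fell and 1 rose in H3255 with MinE07 against C36, beside 20.0% and 16.6% of all genes. MAP2K1, which encodes the ERK kinase MEK1, led those that fell (-0.59, limma adjusted p = 2.11e-06). By the same comparison 3 fell and 2 rose in H1975. The H1975 counts are near the share over all genes (11.1% and 8.88%). Of 9 heat shock genes, 2 fell and none rose in A549 with C36 against vehicle, beside 2.38% and 3.62% of all genes. HSPA8 was at -0.18 (limma adjusted p = 0.0312). In H820 1, HSPA1A, rose with C36 against vehicle (0.18, limma adjusted p = 0.0215), beside 1.56% of all genes. In H3255 5 of 9 fell with MinE07 against C36, beside 20.0% of all genes, and in H1975 4 of 9 fell, beside 11.1%. The part of these genes in the AP-1 changes was not tested.

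The members were not 1 pattern. Over 12 group means centred within each line, a description with no test in which groups share lines and libraries, JUNB followed ATF3 (r = 0.806), JUN followed FOSL1 (0.792) and ATF3 (0.779), and JUND followed FOSL2 (0.773). BATF3 followed FOSL1 most, at 0.493. Among 10994 genes tested in all 4 lines, those most like FOSL1 by the same measure were DDX27 (r = 0.982), NECTIN1 (0.980) and ESPL1 (0.976). Those most like JUN were SSH1 (0.970), PALM2AKAP2 (0.966) and FAM50A (0.965), and those most like JUNB were RGP1 (0.977), AHDC1 (0.962) and PIP4K2C (0.959). For ATF3 they were a further copy of ABR (0.970), URB1 (0.951) and PMAIP1 (0.946), and for BATF3 PRPSAP2 (0.980), MOB1A (0.965) and ARRDC3 (0.944). For FOSL2 they were a further copy of AGK (0.967), DGKD (0.965) and RAB3IP (0.942), and for JUND ZNF281 (0.890), DCAF17 (0.889) and AHI1 (0.876).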

How the data were processed

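Poly-A RNA of 36 libraries was read in pairs of 100 bases. Per the submitters' processing notes, the authors used HISAT2, Cuffdiff and GRCh38.p12 (hg38), with no versions given, and deposited FPKM values for 68271 entries per library. Entries without a name (1874) and 31 entries of repeated names were left out, which removed at most 0.00494% of a library's FPKM. Library totals ran from 362928 to 449811 FPKM. The 9 members and all gene lists were chosen with earlier results of these data known.

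Within each line, genes with a mean of at least 1 FPKM over its 9 libraries were fitted on log2(FPKM + 0.5) with limma 3.58.1 (trend and robust, statmod 1.5.0, R 4.3.3). Fold changes are on that scale, which understates low genes. P-values were adjusted by Benjamini-Hochberg over all genes tested, and a call is an adjusted p under 0.05. Lines were compared in fits of 36 libraries (interactions) and of 12 vehicle libraries. The fitting code was tested on simulated data. Tables were made with Python 3.11.15 and pandas 2.3.3.

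The text names all 9 members and, from each list, up to 2 called genes per comparison with the largest change and no overlap between groups. It also names the 3 genes most like each member tested in all 4 lines. EGFR, DUSP6 and SPRY4 are given as signalling readouts. Alternatives were other pseudocounts, filters and scalings, a fit without trend and robust, a replicate block, leaving out further copies of a name, a fit of all libraries, and leaving out each library.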

Additional observations from a re-analysis of the deposited data

Results flagged for a closer look

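The values here are limma interaction terms, the log2 change in one line minus that in another, called because the difference itself had an adjusted p under 0.05. For MinE07 against C36, H3255 minus H1975 was -0.91 for ATF3, -0.66 for BATF3, -0.53 for JUNB, -0.37 for FOS, -0.31 for JUN and -0.27 for FOSL2. H3255 minus H820 was -0.99 for ATF3, -0.63 for FOSL1, -0.56 for JUN, -0.51 for FOS, -0.42 for JUNB, -0.36 for BATF3 and -0.19 for FOSL2. FOS was below the filter in H820 itself, with a mean of 0.540 FPKM. H3255 minus A549 was -0.70 for FOS, -0.67 for ATF3, -0.56 for FOSL1, -0.40 for BATF3, -0.38 for JUN, -0.28 for JUNB and -0.16 for FOSL2. H1975 minus H820 was -0.36 for FOSL1 and -0.25 for JUN, and H1975 minus A549 was -0.33 for FOS.

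For C36 against vehicle, A549 minus H3255 was 0.42 for JUN. A549 minus H1975 was 0.64 for ATF3, 0.50 for BATF3 and 0.38 for JUN, and A549 minus H820 was 0.54 for ATF3 and 0.29 for JUNB. The BATF3 change was 0.04 in A549 and -0.45 in H1975. Of these 29 differences, 21 were called under every alternative in which the gene was tested, and the filter at 5 FPKM leaves several untested. The terms share libraries, so they are not independent of each other.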

How the results depend on the processing

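Of 110 calls on the members, 84 were kept in every alternative that tested the gene (a filter at 5 FPKM drops FOS, ATF3 and BATF3 from many): 20 of 34 treatment calls, 21 of 29 line differences in treatment and 43 of 47 vehicle differences between lines. Among called values and uncalled ones of at least 0.1 on the log2 scale, the sign changed in 3 cases. JUNB for H1975 minus H820 (MinE07 against C36) was -0.0355 as TPM, which moved the median of all genes for that term by -0.14. For H1975 minus A549 in vehicle FOSL2 was -0.0552 and JUND -0.0684 after medians of ratios, which moved the median of all genes by -0.19. Causes were not tested, except that a filter at 5 FPKM leaves fewer members tested.

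With that filter 3 members were called in H3255 for MinE07 against C36, 3 against vehicle and 0 for C36 against vehicle, 2 in H1975 for MinE07 against C36 and 0 for C36 against vehicle, and 1 in A549 for MinE07 against vehicle. Its line differences for MinE07 were 3, 4 and 4 for H3255 minus H1975, H820 and A549. Those for C36 were 2, 1 and 1 for A549 minus H3255, H1975 and H820, and its vehicle differences were 5 in each pair. With no filter the counts were 0 in H3255 for C36 against vehicle, 1, 2 and 0 in H1975 for MinE07 against C36, MinE07 against vehicle and C36 against vehicle, 1 in H820 and 2 in A549 for C36 against vehicle, and 0 for H1975 minus H820. Without trend and robust they were 0 in H3255 for C36 against vehicle and 1 for A549 minus H820 (C36). As TPM they were 0 in H1975 for C36 against vehicle, 0 for H1975 minus A549 and 2 for H820 minus A549, where TPM moved the median of all genes by 0.12. A pseudocount of 0.1 gave 1 in A549 for MinE07 against vehicle, 1 for H1975 minus H820 and 0 for H1975 minus A549, and a pseudocount of 1 gave 2 for the last. A549 for MinE07 against vehicle had 1 without further copies and 3 in the fit of all 36 libraries, and medians of ratios gave 2 for A549 minus H3255 (C36).

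Leaving out each library gave 7 to 8, 6 to 7 and 0 to 1 calls in H3255 (MinE07 against C36, MinE07 against vehicle, C36 against vehicle), 2 to 3, 2 to 4 and 0 to 1 in H1975, 0, 2 and 2 to 3 in H820, and 0, 0 to 2 and 2 to 4 in A549. The line differences for MinE07 were 5 to 7, 6 to 7 and 6 to 7 for H3255 minus H1975, H820 and A549, 0 to 2 for H1975 minus H820 and minus A549, and 0 for H820 minus A549. Those for C36 were 1 to 2, 3 and 1 to 4 for A549 minus H3255, H1975 and H820, and vehicle differences were 6 to 8.

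Deviations of same-numbered libraries from their group means had correlations from -0.163 to 0.246 within lines. In H820, 4 of 9 same-numbered pairs were over 0.1 (median 0.063), against 1 of 18 differently numbered pairs (median -0.025). For the other lines the counts were 3 of 9 against 4 of 18 (H3255), 1 of 9 against 4 of 18 (H1975) and 0 of 9 against 1 of 18 (A549). The labels do not tie the numbers to a batch, so they were not taken as pairing. With a replicate block H3255 and H1975 had 0 calls for C36 against vehicle, and 6 calls were lost: ATF3 (H3255) and BATF3 (H1975) for C36 against vehicle at 0.0627 and 0.106, FOS in H1975 for MinE07 against C36 at 0.0580, BATF3 in H820 for MinE07 against vehicle at 0.106, and JUND in H820 and JUNB in A549 for C36 against vehicle at 0.0550 and 0.0747 (limma adjusted p).

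FPKM carry no read counts, and relative depth differed 2.35-fold, so the precision of low genes, FOSB and FOS in H820 above all, is not known from the files.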
